A study of Mus musculus with 9 samples.

Results

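The genes of homologous recombination and of the Fanconi anaemia pathway were followed in mouse cardiosphere-derived cells by RNA sequencing. A set of 33 genes was chosen by symbol, and all 33 were found among the 54532 genes of the deposited table. They were sorted by the role of their proteins into 8 genes of BRCA1 complexes and break-end resection, 8 genes of strand pairing and exchange, 3 genes of junction processing, 4 checkpoint kinases, 8 genes of the Fanconi core complex and the 2 genes of the FANCD2-FANCI complex. All 33 passed the filter on low counts in each of the 3 comparisons.

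Homologous recombination repairs a broken chromosome by copying the intact sister chromatid. The ends of the break are cut back to single strands, a protein filament is built on these strands with the help of BRCA2 and PALB2, and it searches for the matching sequence. The Fanconi pathway acts where both strands are linked to each other: a core complex attaches ubiquitin to FANCD2 and FANCI, and the lesion is then cut out and repaired with recombination factors. Both pathways work mainly during and after DNA replication, and the ATM and ATR kinases with their targets CHK2 and CHK1 hold the cell cycle while repair takes place.

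The study grew cells from ventricles of C57BL/6 mice and asked whether the epicardium, the outer layer of the heart, can yield functional cardiosphere-derived cells. As a part of this it compared gene expression in primary and immortalized cells. There were 3 groups of 3 libraries. pECDC libraries hold primary cardiosphere-derived cells, called Primary CDC in the labels, which came from epicardial explants of 6-week-old animals and had no treatment. Their titles read P0, whereas the methods of the study say that its experiments used primary cells at passage 3. iECDC libraries hold hTERT immortalized cells at passage 30 (iCDC in the labels), made by lentiviral transfer of hTERT, the enzyme subunit of human telomerase, behind a CMV promoter and selected with puromycin. SB431542 libraries hold, by their labels, iCDC at passage 30 kept for 3 days in SB431542, which blocks the type I receptor of TGF-β. The SB431542-treated cells that the methods of the study list for sequencing are an epithelial clone derived from pECDCs. Its discussion gives another length of treatment, for pECDC cultures. The study does not say whether that clone is in these libraries. Headers of the deposited table name an S_ICDC group, which goes with the labels. The labels were followed, and the cells behind these libraries were not settled here. Immortalization, drug selection and passage cannot be told apart in a comparison of iECDCs with pECDCs, nor can treatment, immortalization and passage in one of SB431542 libraries with pECDCs.

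Total counts ranged from 16568306 to 23951392 per library. A library stood apart in 2 groups. Per degree of freedom, chi-square of the counts over genes, which sampling noise alone would bring near 1, was 4.61 between iECDC replicates 1 and 2 but 30.8 and 24.9 against iECDC replicate 3, and it was 3.79 between SB431542 replicates 1 and 3 but 71.5 and 70.3 against SB431542 replicate 2, whereas the pECDC pairs gave 2.70 to 4.23. Of 7 marker genes of cardiosphere-derived mesenchymal cells, Eng, Thy1, Col1a1, Col1a2, Pdgfra and Tbx18 were above 10 FPKM in every library, and Ly6a had 3.93 to 7.11 FPKM in pECDCs and iECDCs and 16.2 to 37.0 in SB431542 libraries, where it was higher against both. Of the 7, 1 was higher and 2 were lower in iECDCs against pECDCs. In SB431542 libraries 2 were higher and 0 lower against iECDCs, and 3 and 0 against pECDCs. The summed FPKM of the 7 was 1126 to 1157 in pECDCs and 976 to 1088 in iECDCs. It was 799 in SB431542 replicate 2 but 1447 and 1333 in replicates 1 and 3. The endothelial markers Pecam1, Cdh5, Kdr and Tek and the blood cell markers Ptprc, Itgam and Cd3e were under 0.1 FPKM throughout, and the fourth blood cell marker, Cd68, had 0.673 to 2.04 FPKM and was lower in SB431542 libraries than in pECDCs (-0.86). Of 6 epicardial or mesothelial markers, Krt19 had 18.2 to 19.5 FPKM in pECDCs, 28.8 to 31.2 in iECDCs, where it was higher (0.64), and 22.8 to 37.9 in SB431542 libraries. Wt1, Tcf21 and Upk3b were higher in SB431542 libraries against both other groups, with up to 0.0921, 0.851 and 0.166 FPKM in pECDCs and iECDCs and 0.107 to 0.396, 1.34 to 1.58 and 1.16 to 1.36 in SB431542 libraries, while Krt8 and Msln were too low to be tested. The part of other cells in the repair gene values was not tested. The cardiomyocyte markers Tnnt2, Myh6, Actc1 and Ryr2 together had 0.0517 to 1.68 FPKM. Only 1 of them was tested in each comparison. It was called higher in iECDCs than in pECDCs (log2 fold change 1.36). In SB431542 libraries the tested marker was lower than in iECDCs (-3.07) and than in pECDCs (-1.71). Nothing in the labels says that the libraries of a group came from separate cultures, so the p-values measure the spread between these libraries, which may be technical.

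Repair genes were expressed at low to moderate levels, and Rad50, Nbn, Mre11a and Fance were the 4 highest in each group. FPKM, the count scaled by gene length and library size, divides by gene length and so allows levels of different genes to be compared. Rad50, the ATPase that bridges broken ends, had the highest mean FPKM over the 9 libraries (12.1) and ranked first in each group, followed by its partners Nbn (9.67) and Mre11a (9.45), which form the MRN complex with it, and by Fance (8.54) and Rbbp8 (7.18), the nuclease cofactor that starts resection together with MRN. At the lower end stood Palb2 (1.08), Fancc (0.922) and Atr (0.906). Atr has the longest deposited gene length of the set, 23629 bases, by which its FPKM is divided. The values of Atr and Fancc overlapped in all 3 groups, so the order of these 2 genes was not resolved. Counts ran from 86 for Fancl in iECDC replicate 2 to 1638 for Rad50 in pECDC replicate 1.

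**Figure D1:**
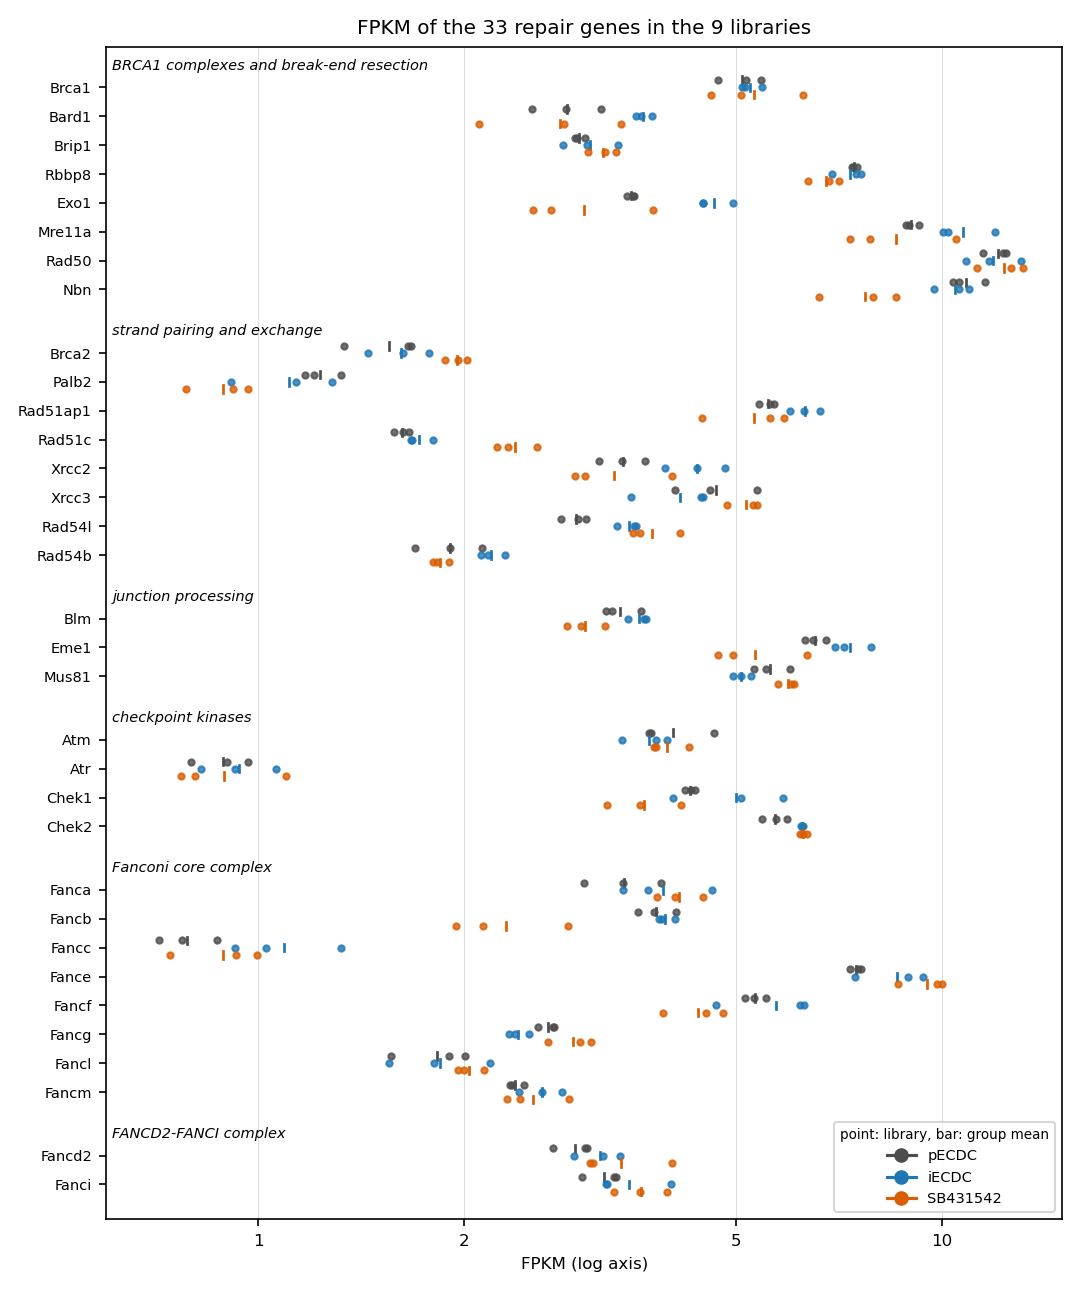
FPKM (horizontal, log axis) of the 33 repair genes (rows, grouped by the role of the protein) in the 9 libraries; each point is a library and each short bar the mean of 3 libraries of pECDC, iECDC or SB431542. Rad50 is highest at a mean of 12.1 and Atr lowest at 0.906, and the SB431542 points of Fancb and Nbn lie to the left of the other groups and those of Rad51c to the right.

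The promoters of the set were read for motifs of the E2F and MuvB factors, which drive genes of the replicating cell. RefSeq gave promoters (GRCm38.p6, 250 bases before to 50 bases after the start) for 26 of the 33 genes. None was matched for Rbbp8, Exo1, Rad50, Nbn, Xrcc2, Rad54b and Fancd2. The E2F-type letters TTTCGCGC, TTTGGCGC, TTTCCCGC or TTTGCCGC stood on either strand in the promoters of 5 of the 26 genes (19.2%), against 4.72% of the 9878 genes that were tested between iECDCs and pECDCs and had a promoter, and 2.6% of all 27025 genes with one. TTTGAA or TTCGAA, the letters of the cell cycle homology region, stood in 11.5% of the 26 genes against 16.1% and 21.7%, and CCAAT in 61.5% against 43.3% and 41.1%. These are matches of letters and not sites shown to be bound. Stretches of 60 bases are given below for the 5 genes with an E2F-type match, since Bard1, Brca2 and Rad51c among them passed a test in what follows, and for Fancb, the gene with the largest decrease, whose promoter held only a CCAAT match. Capitals mark the match, every stretch reads 5′ to 3′ on the strand of the gene, and GCGGGAAA is TTTCCCGC read on the other strand.
Bard1, chr1:71103148-71103207, minus strand: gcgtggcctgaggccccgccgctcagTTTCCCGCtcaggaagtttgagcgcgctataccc
Brca2, chr5:150522427-150522486, plus strand: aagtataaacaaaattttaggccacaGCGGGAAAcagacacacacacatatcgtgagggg
Rad51c, chr11:87404952-87405011, minus strand: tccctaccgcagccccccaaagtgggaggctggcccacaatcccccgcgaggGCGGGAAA
Chek2, chr5:110839805-110839864, plus strand: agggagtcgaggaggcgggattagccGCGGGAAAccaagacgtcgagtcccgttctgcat
Fancg, chr4:43010320-43010379, minus strand: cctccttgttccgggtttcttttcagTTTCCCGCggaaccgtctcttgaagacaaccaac
Fancb, chrX:164980365-164980424, plus strand: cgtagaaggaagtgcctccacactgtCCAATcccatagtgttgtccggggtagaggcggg

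Between iECDCs and pECDCs few repair genes passed the test, and those that did were higher in iECDCs. At a threshold of 0.05 for the p-value adjusted over the 13752 genes tested, 3 of the 33 genes (9.09%) were higher in iECDCs, namely Exo1, a nuclease gene, Bard1, the partner of Brca1, and Xrcc2, a gene of strand exchange, and 0 were lower. Of all tested genes 16.4% passed, 7.21% as higher and 9.21% as lower. DESeq2 called the same 3 genes and none lower, and at an unadjusted p-value under 0.05 edgeR gave 7 higher and 0 lower (31.5% of all tested genes in either direction). The log2 fold change was positive for 24 of the 33 genes, with a median of 0.09 against a median of -0.0018 over all tested genes. The FPKM ranges of the groups did not overlap for 12 genes (36.4%), 10 of them higher and 2 lower in iECDCs, against 39.9% of all tested genes, of which 20.7% were higher and 19.2% lower. In bulk RNA a change in the share of cells that express a gene and a change of RNA per cell cannot be told apart.

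SB431542 libraries differed from iECDCs in 4 of the 33 genes (12.1%), whereas 30.0% of the 13559 tested genes passed. Rad51c was higher (16.0% of all tested genes were), and Fancb, Exo1 and Nbn were lower (14.0%). The median log2 fold change of the set was -0.03 (all tested genes 0.0015), 16 genes were positive and 17 negative. FPKM ranges were apart for 13 genes (39.4%), 5 higher and 8 lower in SB431542 libraries, against 46.5% of all tested genes (23.0% higher and 23.5% lower). At an unadjusted p-value under 0.05 there were 9 genes, against 43.4%. In the comparison of SB431542 libraries with pECDCs, 7 genes passed (21.2%), against 34.8% of 14015 genes: Rad51c, Rad54l, Fance and Brca2 were higher (17.9% of all) and Fancb, Nbn and Palb2 lower (17.0%). There the ranges were apart for 14 genes (42.4%), 7 in each direction, against 51.5% (25.1% higher and 26.4% lower), and 8 genes had an unadjusted p-value under 0.05, against 46.2%. The median of the absolute log2 fold changes was 0.13, 0.24 and 0.16 for the set in the 3 comparisons, in the order given, and 0.17, 0.34 and 0.30 over all tested genes. The comparisons share libraries and are not independent of each other.

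**Figure D2:**
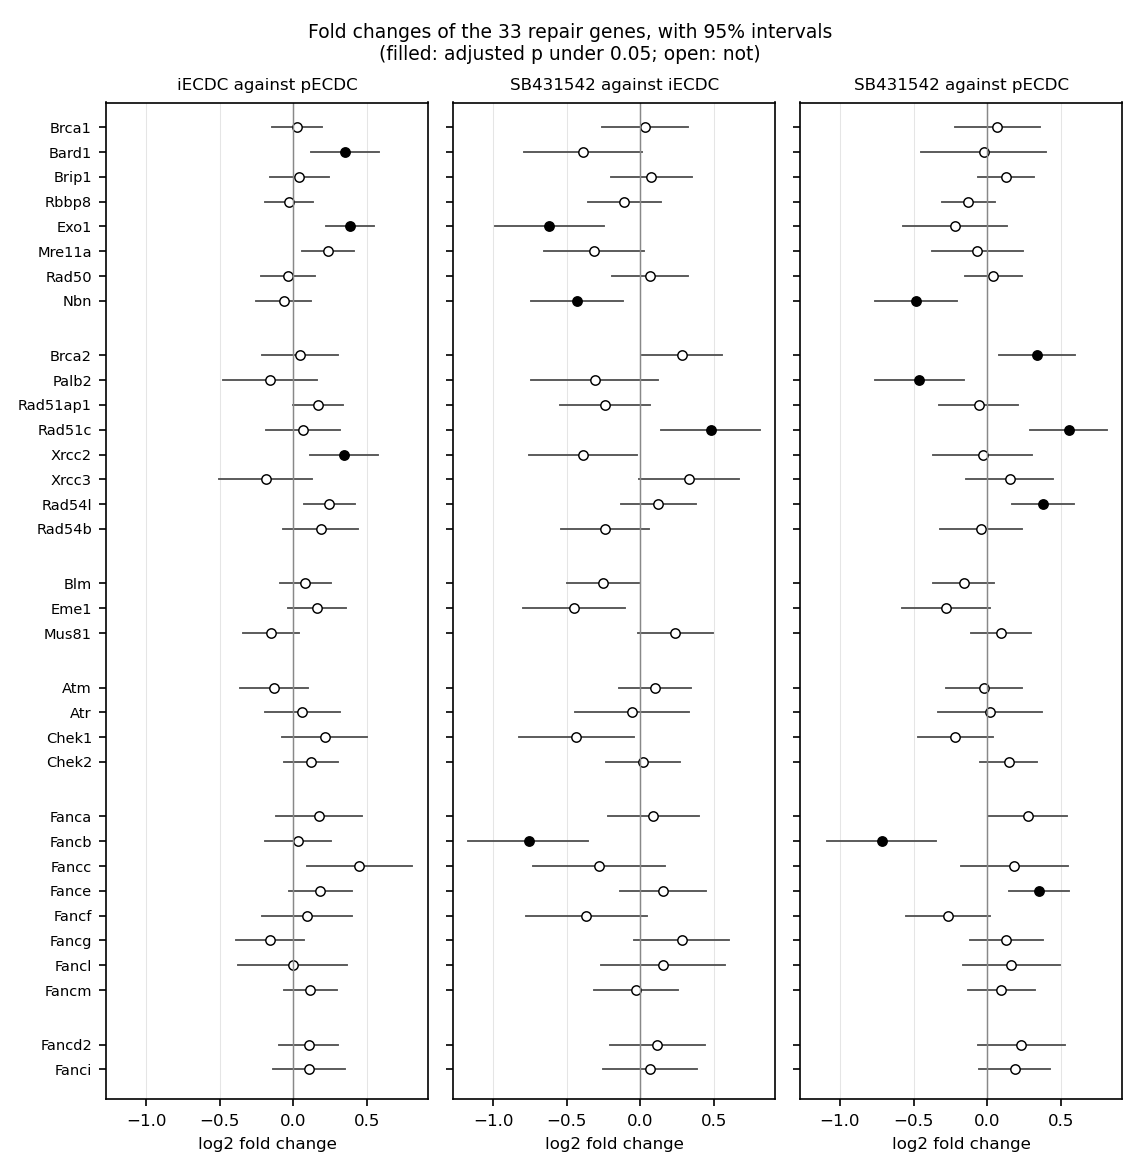
Log2 fold changes (horizontal) of the 33 repair genes (rows, in order of role) in the 3 comparisons, with 95% intervals from edgeR; filled points have an adjusted p-value under 0.05 over all tested genes. Filled points number 3 in iECDC against pECDC, 4 in SB431542 against iECDC and 7 in SB431542 against pECDC, and most intervals include 0.

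Among the genes of break-end resection, Exo1 rose in iECDCs and was lower again in SB431542 libraries. Exo1 encodes the exonuclease that extends resection. Its FPKM was 3.54, 3.46 and 3.54 in pECDC replicates 1 to 3, 4.95, 4.48 and 4.48 in iECDC replicates and 2.53, 3.79 and 2.68 in SB431542 replicates. Every iECDC library lay above every pECDC and every SB431542 library, and SB431542 replicate 2 lay above the pECDC libraries while the other 2 lay below them. Its log2 fold change in iECDCs against pECDCs was 0.39 (SE 0.0719, adjusted p = 0.0073), a call kept in 14 of 15 alternative fits (adjusted p 0.000139 to 0.156) and lost with all 9 libraries in the fit. Against iECDCs the value in SB431542 libraries was -0.62 (SE 0.162, adjusted p = 0.0244), kept in 10 of 15 (0.000221 to 0.0939). Set against pECDCs it was -0.22 (SE 0.151, adjusted p = 0.291).

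The BRCA1-BARD1 ubiquitin ligase gave different values for its subunits. Brca1 had FPKM of 5.17, 5.44 and 4.70 in pECDCs, 5.10, 5.47 and 5.15 in iECDCs and 5.08, 6.26 and 4.61 in SB431542 replicates 1 to 3. The groups overlapped, and the log2 fold changes were 0.02 (95% interval -0.15 to 0.20) for iECDCs against pECDCs, 0.03 (-0.26 to 0.33) for SB431542 libraries against iECDCs and 0.07 (-0.22 to 0.36) against pECDCs. Bard1 had 3.17, 2.82 and 2.51 in pECDCs, 3.57, 3.63 and 3.77 in iECDCs and 2.11, 3.39 and 2.81 in SB431542 replicates. All iECDC libraries were above all others. The log2 fold change of Bard1 in iECDCs against pECDCs was 0.35 (SE 0.102, adjusted p = 0.045), close to the threshold and kept in 5 of 15 alternative fits (adjusted p 0.0156 to 0.251). Its value in SB431542 libraries against iECDCs was -0.39 (SE 0.175, adjusted p = 0.126). The ratio of Bard1 to Brca1 FPKM was 0.519 to 0.613 in pECDCs, 0.664 to 0.733 in iECDCs and 0.415 to 0.61 in SB431542 libraries.

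Within the MRN complex, which holds and trims the broken ends, the NBS1 subunit encoded by Nbn fell in SB431542 libraries. Nbn FPKM was 10.6, 11.6 and 10.4 in pECDCs, 10.9, 10.6 and 9.76 in iECDCs and 7.95, 6.61 and 8.59 in SB431542 replicates 1 to 3. All SB431542 libraries lay below all others, with replicate 2 the lowest. Nbn fell by 0.43 on the log2 scale against iECDCs (SE 0.136, adjusted p = 0.0462; kept in 8 of 15 alternative fits, 0.0115 to 0.138) and by 0.48 against pECDCs (SE 0.118, adjusted p = 0.0193; kept in 11 of 15, 0.000339 to 0.0787). Rad50 had 12.4, 12.3 and 11.5 in pECDCs, 11.7, 13.1 and 10.9 in iECDCs and 13.1, 11.3 and 12.6 in SB431542 replicates, with overlapping groups and log2 fold changes of -0.04, 0.07 and 0.04 in the 3 comparisons. The ratio of Nbn to Rad50 FPKM was 0.852 to 0.939 in pECDCs, 0.813 to 0.935 in iECDCs and 0.586 to 0.680 in SB431542 libraries. Mre11a, the nuclease of the complex, was above every pECDC library in each iECDC library (log2 fold change 0.24, SE 0.0787, adjusted p = 0.0735). In SB431542 libraries against iECDCs Mre11a had -0.315 (SE 0.149, adjusted p = 0.142). Without SB431542 replicate 2 it had -0.49 there, and Nbn -0.33. The ratio of Nbn to Mre11a FPKM overlapped between SB431542 libraries (0.63 to 1.17) and both pECDCs (1.14 to 1.29) and iECDCs (0.816 to 1.07). The remaining genes of this role, Brip1, a helicase bound by BRCA1, and Rbbp8 did not pass in any comparison, with log2 fold changes between -0.13 and 0.13.

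Of the genes of strand pairing and exchange, Rad51c rose in SB431542 libraries. It encodes a protein that stabilizes the filament, and it carries the E2F-type letters shown above. Rad51c FPKM was 1.66, 1.63 and 1.58 in pECDCs, 1.67, 1.80 and 1.68 in iECDCs and 2.56, 2.32 and 2.23 in SB431542 replicates 1 to 3. The 3 SB431542 libraries were above the other 6, replicate 2 included. Rad51c was higher by 0.48 on the log2 scale than in iECDCs (SE 0.147, adjusted p = 0.0409; kept in 8 of 15 alternative fits, 0.00966 to 0.156) and by 0.55 than in pECDCs (SE 0.111, adjusted p = 0.00951; kept in 14 of 15, 0.000297 to 0.0532). In iECDCs against pECDCs it was 0.07 (SE 0.111, adjusted p = 0.725).

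Xrcc2, of the same protein family as Rad51c, rose in iECDCs. Its FPKM was 3.16, 3.68 and 3.41 in pECDCs, 3.93, 4.38 and 4.83 in iECDCs and 3.01, 4.04 and 2.91 in SB431542 replicates. The iECDC libraries were above the pECDC libraries, and among the SB431542 libraries replicate 2 reached the iECDC range while the other 2 were below every pECDC library. The log2 fold change in iECDCs against pECDCs was 0.34 (SE 0.101, adjusted p = 0.0485; kept in 5 of 15 alternative fits, 0.0248 to 0.207). In SB431542 libraries it was -0.39 against iECDCs (SE 0.160, adjusted p = 0.10) and -0.03 against pECDCs. Xrcc3, the family member that pairs with Rad51c, did not pass in any comparison (-0.19, 0.33 and 0.15).

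BRCA2, which helps to build the filament, and PALB2, which joins BRCA2 to BRCA1, went apart in SB431542 libraries against pECDCs. Brca2 FPKM was 1.67, 1.66 and 1.33 in pECDCs, 1.63, 1.45 and 1.78 in iECDCs and 2.02, 1.96 and 1.88 in SB431542 replicates, so that the SB431542 libraries were above the other 6. The log2 fold change of Brca2 was 0.34 against pECDCs (SE 0.109, adjusted p = 0.0484; kept in 4 of 15 alternative fits, 0.00368 to 0.143), 0.28 against iECDCs (SE 0.119, adjusted p = 0.105) and 0.05 in iECDCs against pECDCs. Palb2 had 1.32, 1.17 and 1.21 in pECDCs, 1.28, 1.14 and 0.913 in iECDCs and 0.784, 0.965 and 0.920 in SB431542 replicates. SB431542 libraries were below the pECDC libraries but overlapped with iECDC replicate 3. Palb2 fell by 0.46 on the log2 scale against pECDCs (SE 0.128, adjusted p = 0.0301; kept in 9 of 15, 0.00147 to 0.123), and its value against iECDCs was -0.31 (SE 0.189, adjusted p = 0.24). The ratio of Palb2 to Brca2 FPKM was 0.706 to 0.905 in pECDCs, 0.513 to 0.786 in iECDCs and 0.388 to 0.492 in SB431542 libraries.

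Rad54l encodes a motor protein that helps the filament to invade the matching duplex. Its FPKM was 2.78, 2.94 and 3.02 in pECDCs, 3.35, 3.57 and 3.55 in iECDCs and 3.54, 4.14 and 3.62 in SB431542 replicates, and all pECDC libraries were below all others. Rad54l was higher in SB431542 libraries than in pECDCs by 0.38 on the log2 scale (SE 0.0899, adjusted p = 0.0173; kept in 12 of 15 alternative fits, 0.00118 to 0.0882). In iECDCs against pECDCs the value was 0.25 (SE 0.0754, adjusted p = 0.0562). Exons of Rad54l share 1184 bases with Lrrc41 on the opposite strand, and since the sources used here do not say whether counting used the strand, reads of the 2 genes could have been mixed. Lrrc41 had up to 1772 counts in a library, and Rad54l had 420 to 671. Rad54b, a related motor, and Rad51ap1, which stimulates strand pairing, did not pass in any comparison. Rad54b shares 2068 exonic bases with Fsbp on the same strand, where strand cannot tell the reads apart. Fsbp had up to 31 counts in a library.

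**Figure D3:**
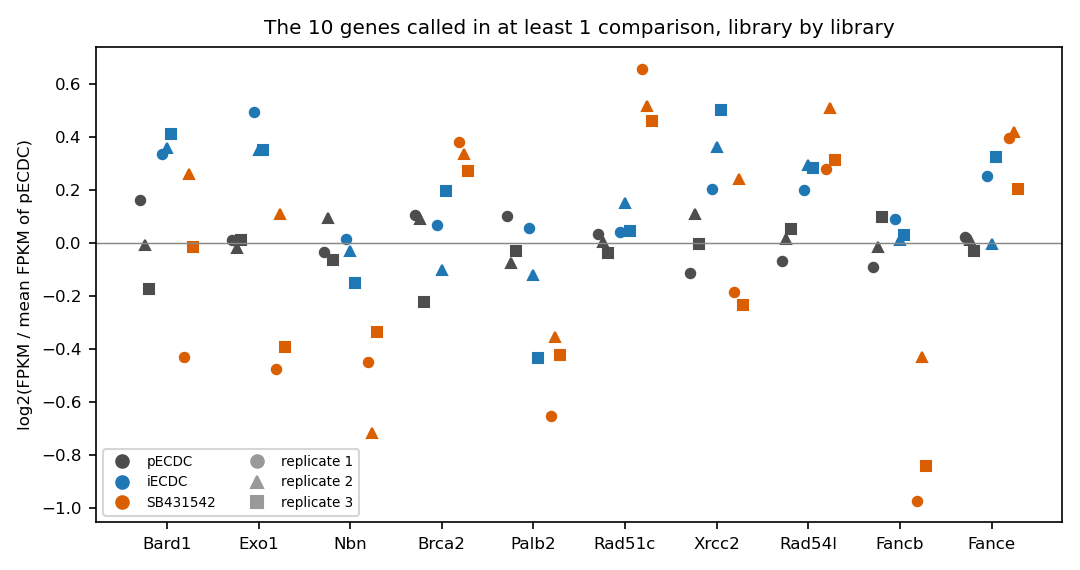
Log2 ratio of FPKM to the mean FPKM of the 3 pECDC libraries (vertical) for the 10 genes called in at least 1 comparison; colours mark the groups and shapes the replicates. SB431542 replicate 2 (triangles) is above replicates 1 and 3 for Bard1, Exo1, Xrcc2, Rad54l and Fancb and below them for Nbn, while Rad51c is high in all 3 SB431542 libraries.

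The nuclease and helicase genes that resolve joined molecules did not pass in any comparison. Eme1, the partner of the MUS81 nuclease, came closest, with a log2 fold change of -0.45 in SB431542 libraries against iECDCs (SE 0.15, adjusted p = 0.0533). All its SB431542 libraries were below all iECDC libraries, and DESeq2 and limma called it lower. Mus81 had a value of 0.24 (SE 0.111, adjusted p = 0.139) in the same comparison, and the ratio of Eme1 to Mus81 FPKM was 1.13 to 1.19 in pECDCs, 1.33 to 1.60 in iECDCs and 0.775 to 1.10 in SB431542 libraries, so that the ranges of the 3 groups did not overlap. Eme1 shares 221 exonic bases with Lrrc59 and 75 with Mrpl27, and Mus81 shares 173 with Efemp2, all on the opposite strand. Lrrc59 had up to 16261 and Efemp2 up to 8162 counts in a library, against up to 440 for Eme1 and 499 for Mus81. Blm, the helicase that dissolves double junctions, had values of 0.08, -0.25 and -0.16 in the 3 comparisons.

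Of the checkpoint kinases none passed in any comparison. Atm, the kinase that answers double-strand breaks, had FPKM of 4.65, 3.73 and 3.76 in pECDCs, 3.41, 3.82 and 3.97 in iECDCs and 3.82, 4.27 and 3.79 in SB431542 replicates. Groups overlapped, and the log2 fold changes were -0.13 (95% interval -0.36 to 0.10), 0.10 (-0.15 to 0.34) and -0.02 (-0.28 to 0.23). Atr, the kinase that answers single-stranded DNA, had 0.901, 0.965 and 0.799 in pECDCs, 0.826, 0.924 and 1.06 in iECDCs and 0.772, 1.10 and 0.808 in SB431542 replicates, with log2 fold changes of 0.06, -0.06 and 0.02. Chek1, the target of ATR, had 0.21 in iECDCs against pECDCs (SE 0.127, adjusted p = 0.289) and -0.44 in SB431542 libraries against iECDCs (SE 0.170, adjusted p = 0.0851). Its iECDC values were spread widely, at 5.87, 5.08 and 4.04 FPKM in replicates 1 to 3. Chek2, the target of ATM, had 6.22 to 6.27 FPKM in iECDCs and 6.21 to 6.35 in SB431542 libraries, and its log2 fold change between these groups was 0.02 (95% interval -0.23 to 0.27).

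Fancb showed the largest decrease of the set. It encodes a subunit of the Fanconi core complex that holds the ubiquitin ligase FANCL, and it is the only gene of the set on the X chromosome. Fancb FPKM was 3.60, 3.79 and 4.09 in pECDCs, 4.07, 3.85 and 3.90 in iECDCs and 1.95, 2.84 and 2.13 in SB431542 replicates 1 to 3. All SB431542 libraries were below the other 6, with replicate 2 nearest to them. Fancb fell by 0.76 on the log2 scale against iECDCs, to 0.591 of their level (SE 0.177, adjusted p = 0.016; kept in 11 of 15 alternative fits, 0.000828 to 0.069). Against pECDCs it fell by 0.72 (SE 0.158, adjusted p = 0.0134; kept in 13 of 15, 2.92e-06 to 0.0636), and in iECDCs against pECDCs its value was 0.03. Over all tested genes of the X chromosome the median log2 fold change was -0.02 in both comparisons with SB431542 libraries (442 and 462 genes). Fancl itself had values of 0.15 and 0.16 there, and the ratio of Fancb to Fancl FPKM was 1.79 to 2.42 in pECDCs, 1.79 to 2.48 in iECDCs and 0.994 to 1.32 in SB431542 libraries.

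Fance, the subunit that binds FANCD2, moved the other way. Its FPKM was 7.61, 7.55 and 7.34 in pECDCs, 8.92, 7.47 and 9.40 in iECDCs and 9.86, 10.02 and 8.63 in SB431542 replicates. The SB431542 libraries were above the pECDC libraries and overlapped with iECDCs. The log2 fold change was 0.35 against pECDCs (SE 0.0857, adjusted p = 0.0194; kept in 11 of 15 alternative fits, 0.00139 to 0.0895) and 0.16 against iECDCs (SE 0.127, adjusted p = 0.375). Fancf, the adaptor of the complex, had -0.27 and -0.37 in these comparisons (adjusted p = 0.126 and 0.152), and the ratio of Fance to Fancf FPKM was 1.37 to 1.48 in pECDCs, 1.42 to 1.60 in iECDCs and 1.91 to 2.52 in SB431542 libraries. The other core genes, Fanca, Fancc, Fancg, Fancl and Fancm, did not pass in any comparison. Fancc had a log2 fold change of 0.45 in iECDCs against pECDCs (SE 0.156, adjusted p = 0.0832), and 0.30 without iECDC replicate 3. Overlapping genes on the opposite strand were Zfp276 for Fanca (920 shared exonic bases), Gas2 for Fancf (253), Vrk2 for Fancl (462) and 2010111I01Rik for Fancc (185). Gas2 had up to 486 counts in a library against up to 215 for Fancf, and Vrk2 up to 291 against up to 166 for Fancl.

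The targets of the core complex stayed close together. Fancd2 FPKM was 3.03, 3.01 and 2.70 in pECDCs, 2.90, 3.20 and 3.39 in iECDCs and 3.06, 4.04 and 3.09 in SB431542 replicates 1 to 3. SB431542 replicate 2 was the highest library, and the other 8 lay between 2.70 and 3.39. The log2 fold changes of Fancd2 were 0.10 (95% interval -0.10 to 0.30), 0.12 (-0.21 to 0.44) and 0.23 (-0.06 to 0.53), and those of Fanci were 0.11, 0.07 and 0.19, none of which passed. The ratio of Fanci to Fancd2 FPKM was 1.09 to 1.11 in pECDCs, 1.01 to 1.19 in iECDCs and 0.895 to 1.29 in SB431542 libraries. Fanci shares 921 exonic bases with Polg on the opposite strand, which had up to 1612 counts in a library.

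**Figure D4:**
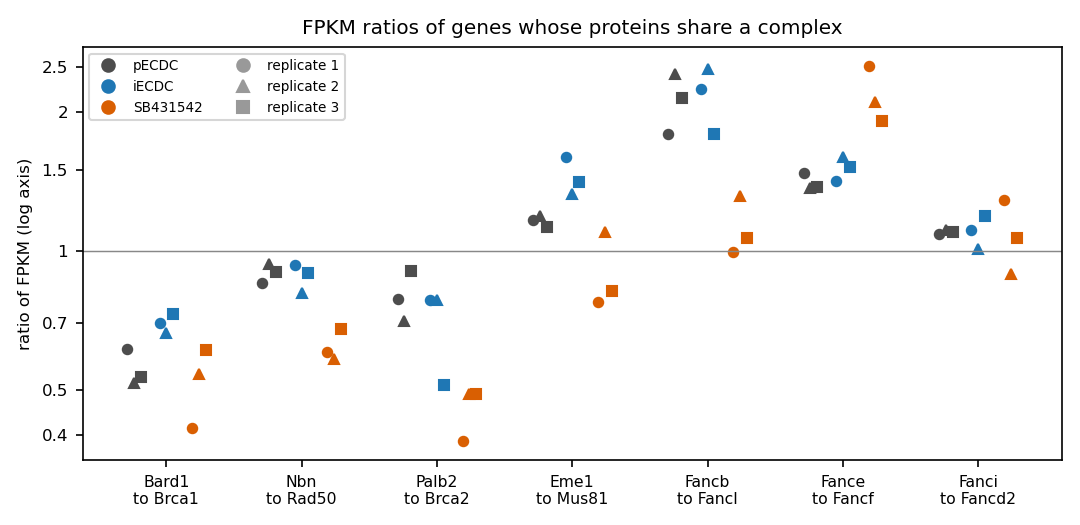
Ratio of the FPKM of 2 genes whose proteins share a complex (vertical, log axis) in each library, with colours for the groups, shapes for the replicates and a line at 1. SB431542 libraries lie apart from and below both other groups for Nbn to Rad50 (0.586 to 0.680), Palb2 to Brca2, Eme1 to Mus81 and Fancb to Fancl, above them for Fance to Fancf, and overlap with them for Fanci to Fancd2. For Bard1 to Brca1 they overlap with pECDCs and lie below iECDCs.

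Both libraries that stood apart bore on these results. SB431542 replicate 2 was the highest of its group for 22 of the 33 genes, with a median log2 ratio of 0.18 to the mean of the others. Without it, 1 gene was higher and 9 lower in SB431542 libraries against iECDCs, against 25.3% higher and 24.8% lower of all tested genes. Those 9 were Fancb, Exo1, Nbn, Eme1, Bard1, Xrcc2, Chek1, Mre11a and Blm. Fancb then fell by 0.94 on the log2 scale and Exo1 by 0.82, Eme1 had -0.60, Bard1 and Xrcc2 -0.56, Chek1 -0.54, Mre11a -0.49, Nbn -0.33 and Blm -0.31. Rad51c kept a value of 0.49. Against pECDCs the same omission gave 5 genes higher and 9 lower (31.7% and 32.3% of all tested genes), adding Fanca to the higher and Exo1, Mre11a, Blm, Chek1, Eme1 and Fancf to the lower genes.

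Leaving out iECDC replicate 3 gave 7 genes higher and 0 lower in iECDCs against pECDCs (15.5% and 16.2% of all tested genes). Mre11a, Rad51ap1, Rad54l and Chek1 joined Exo1, Bard1 and Xrcc2, with log2 fold changes of 0.16, 0.21, 0.24 and 0.35. In SB431542 libraries against iECDCs the same omission gave Nbn, Fancb and Chek1 as lower and none as higher (11.9% and 13.5% of all tested genes). Chek1 (-0.58) was gained, and the calls of Exo1 (-0.65, adjusted p = 0.0515) and Rad51c (0.45, adjusted p = 0.0772) were lost at much the same log2 fold change. Leaving out iECDC replicate 1 or 2 or SB431542 replicate 1 or 3 called none of the 33 genes in that comparison, against 12.3%, 12.8%, 12.8% and 13.7% of all tested genes.

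The summed proliferation markers were highest of their group in both libraries that stood apart. The summed FPKM of 24 such genes was 998 to 1023 in pECDCs and 1186 to 1383 in iECDCs, the latter in replicate 3, and it was 836 in SB431542 replicates 1 and 3 but 1220 in replicate 2. In iECDCs against pECDCs 13 of the 24 were higher and 0 lower (7.21% and 9.21% of all tested genes), with a median log2 fold change of 0.29. Among the 13 were Rrm2 (0.45), Mcm3 (0.38), Mcm5 (0.48) and Cdk1 (0.29). In SB431542 libraries against iECDCs 0 were higher and 6 lower (16.0% and 14.0% of all tested genes), with a median of -0.37. Without SB431542 replicate 2 there were 18 lower (24.8% of all tested genes), with a median of -0.59, but without iECDC replicate 3 there was 1 (11.9%). Rrm2, a subunit of ribonucleotide reductase, had -1.25 and the cyclin genes Ccne1 and Ccne2 -0.94 and -0.88. In that comparison 21 of the 24 were negative and 3 positive, Mki67 among the latter (0.22, adjusted p = 0.227). Against pECDCs 1 was higher, Mki67, and 1 lower, Ccne2 (17.9% and 17.0% of all tested genes), with a median of -0.06. Without SB431542 replicate 2 there were 3 higher and 17 lower (31.7% and 32.3%), with a median of -0.27. The summed FPKM of the 33 repair genes was 138 to 144 in pECDCs, 152, 148 and 152 in iECDC replicates 1 to 3 and 134, 148 and 135 in SB431542 replicates 1 to 3. For the repair genes iECDC replicate 3 thus did not stand out in the sum of deposited FPKM, which rests on the scaling constant of each library. It was the highest of its group for 13 and the lowest for 12 of the 33 genes. What part proliferation has in the repair gene values was not tested.

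**Figure D5:**
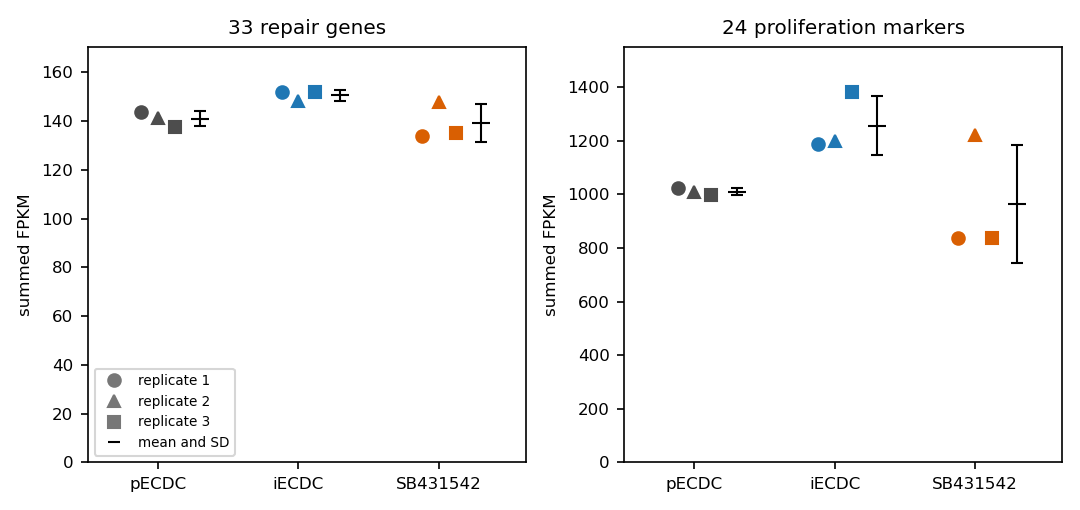
Summed FPKM (vertical, from 0) of the 33 repair genes (left) and of 24 proliferation markers (right) in each library, with shapes for the replicates and the mean and SD of each group beside them. In both panels SB431542 replicate 2 lies above replicates 1 and 3 of its group (148 against 134 and 135 on the left, 1220 against 836 on the right), and iECDC libraries lie above pECDC libraries. The values are deposited FPKM, whose scaling constant differs from the total count of a library.

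Partners in homologous recombination that are not of the set were read next. Of all tested genes 7.21% were higher and 9.21% lower in iECDCs against pECDCs. In SB431542 libraries these shares were 16.0% and 14.0% against iECDCs and 17.9% and 17.0% against pECDCs. Of 27 such partner genes 2 were higher and 0 lower in iECDCs against pECDCs, with a median log2 fold change of 0.02. These were Rpa2, a subunit of the single-strand binding protein RPA (0.38, adjusted p = 0.0044), and Mms22l, which promotes recombination at stalled forks (0.35, adjusted p = 0.0393). In SB431542 libraries against iECDCs 1 was higher, the helicase gene Wrn (0.61), and 3 were lower, namely Rpa2 (-0.46), Sem1 (-0.36), a small BRCA2 partner, and Polq (-0.55), the polymerase of the alternative end joining pathway. Against pECDCs 3 were higher and 7 lower, with Rad51b, of the same family as Rad51c, higher (0.73) and Sfr1 and Swi5, whose proteins form a complex, lower (-0.49 and -0.45).

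Among 18 partners in the Fanconi pathway, Cenps (0.59) and Ercc1 (0.59) were higher and Rev3l (-0.51) lower in iECDCs. ERCC1 is part of the nuclease that unhooks crosslinks, and REV3L is the catalytic subunit of the polymerase that copies past them. Between SB431542 libraries and iECDCs Rev3l (0.78) and its partner Mad2l2 (0.54) were higher, and 3 genes were lower, with Ercc1 at -0.82 and Ube2t, the enzyme that passes ubiquitin to FANCD2, at -0.69. Against pECDCs 4 were higher, Faap100 (0.79), Mad2l2 (0.44), Ercc4 (0.37) and Faap20 (0.36), and 0 were lower. FAAP100 binds FANCB and FANCL, and between these groups Faap100 was higher, Fancb was lower and Fancl had a log2 fold change of 0.16 (SE 0.140, adjusted p = 0.395). Of 24 partners in checkpoint and break signalling 2 were higher in iECDCs against pECDCs, Cdc25a, the phosphatase that CHK1 restrains (0.34), and Clspn, the adaptor that helps ATR to activate CHK1 (0.27), and 1 was lower, Trp53bp1, which limits resection (-0.24). In SB431542 libraries against iECDCs 0 were higher and 2 lower, Cdc25a (-0.89) and Tipin, a protein of the fork (-0.70). Against pECDCs Babam2, of a BRCA1 complex, was higher (0.52) and Tipin (-0.57) and Rad17 (-0.38) were lower. Of all tested genes 16.4%, 30.0% and 34.8% passed in the 3 comparisons, in the order given.

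In the other repair pathways 3 of 49 genes passed between iECDCs and pECDCs, against 16.4% of all tested genes. None of 10 end joining genes and none of 16 nucleotide excision repair genes passed with edgeR (1 and 0 of them at an unadjusted p-value under 0.05, and 0 and 0 with DESeq2). Of 7 mismatch repair genes Mlh3 was lower (-0.59), and of 16 base excision repair genes Ung (0.53) and Apex1 (0.26) were higher. In SB431542 libraries against iECDCs 0 of 10, 3 of 16, 1 of 7 and 1 of 16 passed in these pathways, including Msh3 (0.65), Xpc (0.42) and Xpa (0.58) as higher and Gtf2h1 (-0.51) and Tdg (-0.49) as lower, against 30.0% of all tested genes. Set against pECDCs, 14 of the 49 genes passed in SB431542 libraries, 6 as higher and 8 as lower, against 34.8% of all tested genes. Of 20 E2F and MuvB regulators, E2f2 (0.53), E2f7 (0.39) and Rbbp4 (0.37) were among 5 higher in iECDCs against pECDCs, and Rbl2, a pocket protein, was lower (-0.51). Against iECDCs, in SB431542 libraries, Rbl2 was higher (0.87) and E2f4 (-0.67) and Lin9 (-0.50) were among 4 lower. Set against pECDCs, 4 of the regulators were higher and 2 lower. The counts of these lists moved with the libraries that stood apart. Without SB431542 replicate 2, where 25.3% of all tested genes were higher and 24.8% lower against iECDCs, the recombination partners had 2 higher and 14 lower, the Fanconi partners 4 and 5, the checkpoint partners 0 and 7, nucleotide excision repair 3 and 6, mismatch repair 1 and 2, base excision repair 1 and 4 and the E2F and MuvB regulators 2 and 9, while end joining had 0 and 0. Against pECDCs the same omission gave 3 higher and 13 lower recombination partners, 7 and 5 Fanconi partners and 3 and 11 checkpoint partners (31.7% and 32.3% of all tested genes). It gave 3 and 2 end joining, 4 and 7 nucleotide excision repair, 2 and 3 mismatch repair and 2 and 5 base excision repair genes. The regulators had 6 and 8 there. Without iECDC replicate 3, where 15.5% of all tested genes were higher and 16.2% lower in iECDCs against pECDCs, the recombination partners had 4 and 2, the Fanconi partners 6 and 1, the checkpoint partners 4 and 1 and the E2F and MuvB regulators 9 and 1. In SB431542 libraries against iECDCs that omission gave 0 higher and 4 lower recombination partners, 3 and 0 Fanconi partners, 0 and 3 checkpoint partners and 2 and 2 regulators. These lists were chosen with earlier results of these data known, so their counts are no independent evidence of a direction.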

How the data were processed

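The 9 libraries were sequenced on an Illumina platform. Per the labels, reads were aligned with TopHat2 2.0.9 and Bowtie2 2.0.6; the program that counted them and its use of strand are not given in the sources used here. The authors deposited 1 table with the raw count of each gene in each library, without normalization, and an FPKM value, which equals the count over gene length and a scaling constant that each library has. The labels name the build mm9, but 53499 of the 54532 genes, among them 32 of the 33 repair genes, have the span that GENCODE release 21 gives on GRCm38, so coordinates are read as GRCm38. The labels and the methods of the study differ on kit and instrument. Columns of the authors' own comparisons (group means, log2 fold changes, p-values) were not used. All rows name a gene.

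Samples were grouped by their labels. Tests of the counts used edgeR 4.0.16 under R 4.3.3 (TMM, filterByExpr with a minimum count of 10 and a minimum total of 15, quasi-likelihood test, only the 6 libraries of the 2 groups compared). P-values were adjusted by the Benjamini-Hochberg method over all tested genes, with a threshold of 0.05. The common coefficient of biological variation was 0.0919 for iECDC against pECDC, 0.171 for SB431542 against iECDC and 0.144 for SB431542 against pECDC, and the median SE of a log2 fold change of the set was 0.10, 0.139 and 0.115. Levels are deposited FPKM. The scaling constant behind them is not the total count of a library. In iECDC replicate 3 it was 1.54e+07 against a total of 16568306, and in pECDC replicate 1 it was 2.45e+07 against 23951392. Summed FPKM depends on this constant, and sums under another scaling were not taken. The test was first run on simulated counts with known changes.

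The 33 genes, the partner and marker lists and the tests were chosen with earlier results of these data known. Values in every library are given for genes called in at least 1 comparison, for Brca1, Brca2, Fancd2 and Atm and for the genes of highest and lowest mean FPKM; partner genes are named among those called, at most 4 for each list and comparison; overlapping genes are named for that relation. The pairs of genes whose ratio is given were chosen after values had been seen. Ratios of Mre11a to Rad50, Nbn to Mre11a and Xrcc3 to Rad51c were also taken and are not drawn. In each of them the SB431542 libraries (0.582 to 0.93, 0.63 to 1.17 and 1.89 to 2.4) overlapped with iECDCs. Names outside this rule (Eme1, Mus81, Chek1 and others of the set) are members given by fold change, with an FPKM range or ratio for some. A gene of the homologous recombination list is not reported here and was left out of its counts. Shfm1, Fam175a, Bre, Apitd1 and Stra13 were matched through RefSeq synonyms. Alternatives were DESeq2 1.42.0, RLE and upper-quartile factors, no filter, a minimum of 10 counts per library, a fit of all 9 libraries together, a block for the replicate number, each library left out, and limma 3.58.1 on log2(FPKM + 1) and log2(FPKM + 0.1). Figures were drawn with matplotlib 3.10.9.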

Additional observations from a re-analysis of the deposited data

How the results depend on the processing

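For iECDC against pECDC, 1 gene of the set was higher, in place of 3, with upper-quartile factors, with at least 10 counts in every library, with the replicate block and with limma on log2(FPKM + 1) and log2(FPKM + 0.1). With all 9 libraries in the fit it was 0, and 671 genes in all and 2 partner and comparison genes were called, against 2258 and 30. Leaving out 1 library gave 1 to 7 higher genes of the set and 1036 to 4467 genes in all, both highest without iECDC replicate 3. Without 1 library Brca1 had -0.03 to 0.07 and Brca2 -0.05 to 0.12.

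For SB431542 against iECDC, no filter on low counts and the replicate block each gave 0 higher genes, in place of 1. All 9 libraries in the fit gave 7 lower, in place of 3, and 52 partner and comparison genes, in place of 28. Leaving out 1 library gave 0 to 1 higher and 0 to 9 lower, with 1707 to 7001 genes in all against 4061, both highest without SB431542 replicate 2. Brca1 had -0.10 to 0.13 and Fancd2 -0.03 to 0.19.

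For SB431542 against pECDC, leaving out 1 library gave 0 to 5 higher and 0 to 9 lower, with 2453 to 9188 genes in all against 4881, highest without SB431542 replicate 2. Brca1 had -0.07 to 0.16 and Atm -0.08 to 0.08. The replicate block gave 3 higher and 2 lower here and 2 lower in SB431542 against iECDC.

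No pairing of libraries by the replicate numbers of the labels was seen: the correlation of deviations between libraries with the same number ran from -0.307 to 0.036. The libraries that stood apart, iECDC replicate 3 and SB431542 replicate 2, carry different numbers and weigh on this check (0.232 between them). It therefore cannot exclude a pairing. The cause of the differences between fits was not tested. The smallest log2 change of the set that passed in any of the 3 comparisons was 0.34.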
